A study of Homo sapiens with 6 samples.

Results

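Homologous recombination and Fanconi genes, 32 in all among 58299 gene IDs in the count table, were compared between AC16 cells treated with doxorubicin and AC16 cells treated with the vehicle. The 32 genes were a named list of end-sensing factors, recombination mediators and Fanconi anaemia genes, matched by gene symbol, and all 32 passed the filter on low counts. The doxorubicin group was 3 libraries of AC16 cells exposed to 100 nM doxorubicin for 48 h. The DMSO group was 3 libraries of AC16 cells exposed to 0.1% DMSO for 48 h. AC16 is a human line made by fusing ventricular heart cells with a transformed fibroblast line, and doxorubicin is an anthracycline that traps type II topoisomerases on broken DNA. No label ties the 3 libraries of a group to separate cultures, and the p-values below rest on library-to-library spread alone, which may be technical.

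Homologous recombination repairs a DNA break by copying an intact sister strand. The break is sensed by the MRE11-RAD50-NBN complex, its ends are cut back to single strands, and mediators such as BRCA2 then help the strand to pair with the sister. The Fanconi pathway acts on crosslinked DNA: a core complex attaches ubiquitin to the FANCD2-FANCI pair, which passes the lesion to nucleases and to the recombination machinery. Many of these genes are known to be transcribed mainly in cells that copy their DNA.

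Total counts were 17252862 to 18665979 in the doxorubicin libraries and 17929419 to 19571731 in the DMSO libraries. CDKN1A, which encodes the p53-induced cell cycle inhibitor p21, was 35.9-fold higher after doxorubicin, and TOP2A, which encodes a target of the drug, was 3.53-fold lower. Markers of heart muscle were nearly absent: of 14 cardiomyocyte markers, TTN alone passed the expression filter, and TNNT2 had 0.0562 ± 0.0560 CPM (counts scaled to a common library size with edgeR's TMM factors) in doxorubicin and 0.0741 ± 0.0642 CPM in DMSO (SD, n = 3 each). MYH6, MYH7, MYL2, MYL7, RYR2, NKX2-5 and MYBPC3 were at 0 in all DMSO libraries. The cardiomyocyte list summed to 8.79 to 11.2 CPM in doxorubicin and 6.43 to 7.73 CPM in DMSO. Doxorubicin values lay wholly above DMSO values for 6 of the 14 markers and wholly below for 1. Among all genes that passed the filter, 34.8% lay wholly above and 34.3% wholly below. Most of the 14 markers did not pass it, so these counts do not set the list apart. TTN was called higher, with 8.35 ± 1.24 CPM in doxorubicin and 5.93 ± 0.273 CPM in DMSO, and RYR2 reached 0.408 CPM in doxorubicin. All 10 fibroblast markers passed and 6 of them fell, where 32% of all genes that passed fell. The summed level of the fibroblast markers was 14033 to 17822 CPM in doxorubicin and 24559 to 26693 CPM in DMSO. The endothelial list summed to 3.08 to 4.49 CPM in doxorubicin and 2.12 to 2.66 CPM in DMSO, and the immune list to 2.59 to 3.30 CPM in doxorubicin and 1.956 to 2.81 CPM in DMSO. The part of these cell markers in the results below was not tested.

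Promoter letters are shown first for the members that carry a match to an E2F site, because E2F factors are known to drive genes of DNA replication and because the members that fell are set against these matches below; the windows were chosen after values were seen. The letters searched were TTTCCCGC, TTTCGCGC, TTTGCCGC and TTTGGCGC on both strands, in RefSeq promoters (GRCh38.p14) that run from 250 bases before to 50 bases after a start. Of the 32 members, 28 had an entry, and NBN, WRN, RAD54B and FANCI did not. The capitals mark the match, and each line is read on the strand of its gene.
FANCD2: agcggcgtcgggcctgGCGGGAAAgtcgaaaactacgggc
CLSPN: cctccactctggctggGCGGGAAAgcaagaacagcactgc
FANCC, upstream match: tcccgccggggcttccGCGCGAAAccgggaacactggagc
FANCC, downstream match: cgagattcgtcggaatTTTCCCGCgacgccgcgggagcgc
FANCA: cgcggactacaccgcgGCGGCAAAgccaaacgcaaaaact
EXO1: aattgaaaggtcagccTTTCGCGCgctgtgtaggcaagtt
XRCC2: gtgaatggcgttggtgGCGGGAAAg

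These windows lie at chr3:10026419-10026458 (+ strand) for FANCD2, chr1:35769960-35769999 (- strand) for CLSPN, chr9:95317858-95317897 and chr9:95317732-95317771 (- strand) for FANCC, chr16:89816796-89816835 (- strand) for FANCA, chr1:241848192-241848231 (+ strand) for EXO1 and chr7:152676112-152676136 (- strand) for XRCC2. FANCD2 and CLSPN carried the same letters, GCGGGAAA, at almost the same place, beginning 2 and 5 bases before the start, and XRCC2, which was not called, carried them from base 22 after its start. The matches of FANCA and the upstream match of FANCC both began 172 bases before the start.

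More of these genes fell than rose after doxorubicin, and no member changed as much as 2-fold. By edgeR's quasi-likelihood test with Benjamini-Hochberg adjustment over all 15358 tested genes, 17 of the 32 members fell at an adjusted p under 0.05, 4 rose (MRE11, RAD50, RAD52 and RAD51C) and 11 did not pass. In all tested genes, 32% fell and 32.7% rose, or 64.7% in either direction. Among the members 53.1% fell and 12.5% rose. Their median log2 fold change was -0.32, beside -0.0013 over all tested genes. At least a 1.5-fold fall was called for 12 members, where 16% of all tested genes met that rule, and at least a 1.5-fold rise for 2 members (MRE11 and RAD50), where 21.7% did. The 3 doxorubicin values lay wholly below the 3 DMSO values in 20 members, as in 34.3% of all tested genes, and wholly above in 5 members, as in 34.8% (69.1% either way). In bulk RNA, fewer cells that express a gene and less of its RNA per cell cannot be told apart.

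**Figure D1:**
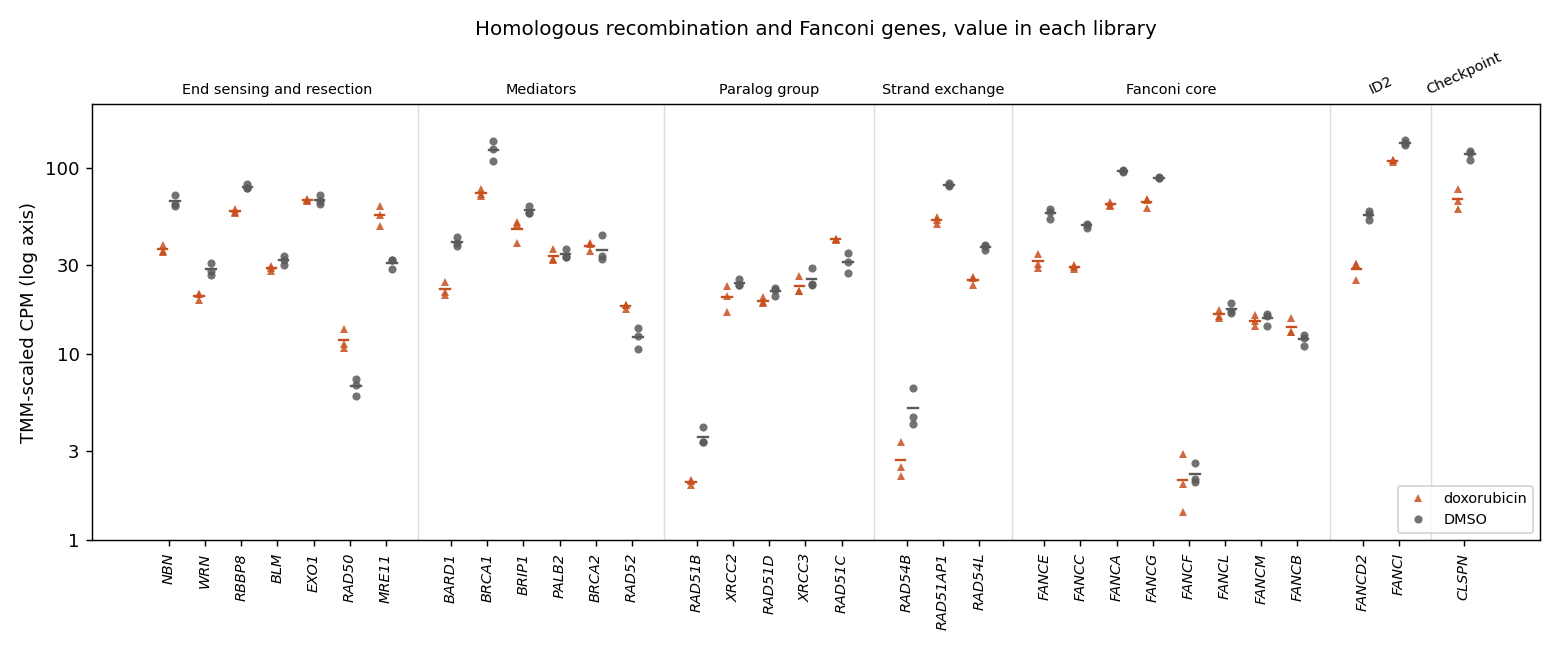
TMM-scaled CPM (log axis) of the 32 members in each library, grouped by role, with doxorubicin libraries as triangles and DMSO libraries as circles; short lines are group means. Within end sensing and resection the genes split: MRE11 and RAD50 lie higher in doxorubicin, NBN lies lower, and EXO1 overlaps between groups. PALB2, a mediator, also overlaps between groups.

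Proliferation markers also fell more often than they rose. Where 32% of all tested genes fell and 32.7% rose, 20 of 26 markers fell and 2 rose (PCNA, log2 fold change 1.21, and TYMS, 0.53). Their median log2 fold change was -0.64, and their summed level was 4324 to 4471 CPM in doxorubicin and 6936 to 7124 CPM in DMSO; none was at 0. PLK1, a mitotic kinase, had a log2 fold change of -3.19 and CCNB1, cyclin B1, of -2.85. At least a 2-fold fall was called for 11 of the markers and for 0 of the 32 members. Other markers moved less: CDT1, with a log2 fold change of -0.26, and MCM7, with -0.18, fell, and CCNE1, CDC6, E2F1 and MYBL2, which were not called, ranged from -0.16 to 0.15 on the log2 scale. The part of proliferation in the members' changes was not tested.

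End sensing and resection were compared first. The 3 subunits of the break sensor moved apart: MRE11 and RAD50 rose and NBN fell. MRE11 (chr11:94415578-94493908, GRCh38), the nuclease of the complex, had 48.4, 62.5 and 55.7 CPM in doxorubicin replicates 1 to 3 and 32.1, 31.9 and 28.4 CPM in DMSO replicates 1 to 3. Every doxorubicin value was above every DMSO value. The log2 fold change was 0.85 ± 0.09 (SE, adjusted p = 7.1e-07, edgeR). The order of MRE11 and RAD50 by size of the rise depended on which library was left out.

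RAD50 (chr5:132556019-132646344), the ATPase that holds DNA ends together, had 13.6, 11.3 and 10.7 CPM in doxorubicin and 7.38, 6.82 and 5.96 CPM in DMSO. These groups did not overlap either, and the log2 fold change was 0.82 ± 0.14 (SE, adjusted p = 7.2e-05, edgeR). Its level is uncertain, because 79.7% of its exon bases lie in exons of ENSG00000283782, a gene on the same strand with 2 counts in all doxorubicin libraries and 3 in all DMSO libraries. Only 313 of the 4202 coding bases of RAD50, or 7.45%, lie in no other listed gene.

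NBN (chr8:89933336-90003228), the subunit that recruits the damage kinase ATM, had 38.2, 35.0 and 35.9 CPM in doxorubicin and 62.5, 71.2 and 63.6 CPM in DMSO. Its lowest DMSO value was well above its highest doxorubicin value, and no exon base lies in another listed gene. The log2 fold change was -0.86 ± 0.08 (SE, adjusted p = 5.8e-08, edgeR).

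Per kilobase of exon, MRE11 stood at 1.01, 1.43 and 1.24 times NBN in the doxorubicin libraries and at 0.411, 0.359 and 0.358 times NBN in the DMSO libraries, so the order of the pair turned over. Ratios were compared for 7 pairs chosen after their values were seen, and the 3 pairs with RAD50 or XRCC3 are not given, because the levels of those genes cannot be set against others. An exact two-sided permutation test over 3 against 3 libraries cannot go below p = 0.1. MRE11 over NBN gave that smallest exact permutation p (0.14 after adjustment over the 7 pairs).

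**Figure D2:**
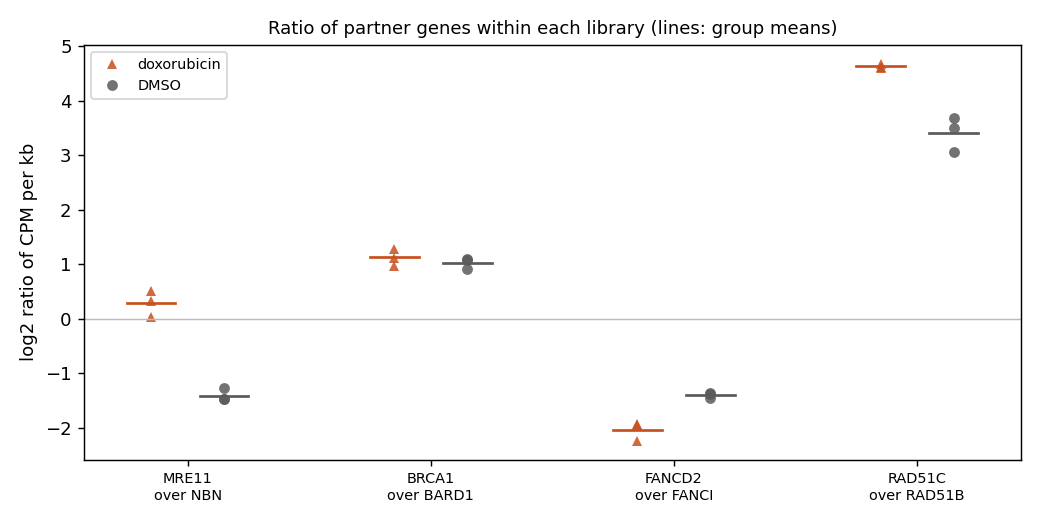
Log2 ratio of CPM per kilobase of exon between partner genes within each library, with doxorubicin libraries as triangles and DMSO libraries as circles; lines are group means. MRE11 over NBN lies above 0 in all 3 doxorubicin libraries, only just so in replicate 1, and below 0 in all 3 DMSO libraries. BRCA1 over BARD1 overlaps between groups.

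Among the genes that cut back and unwind DNA ends, RBBP8 (CtIP, which starts resection with MRE11) fell to 58.4 ± 1.41 CPM in doxorubicin, against 78.9 ± 2.15 CPM in DMSO (SD, n = 3 each). WRN, a helicase and exonuclease lost in Werner syndrome, fell to 20.4 ± 0.778 CPM, against 28.5 ± 2.12 CPM in DMSO. EXO1, the exonuclease of long resection, had 66.9 ± 0.668 CPM in doxorubicin and 66.9 ± 3.73 CPM in DMSO, with an approximate 95% interval of the log2 fold change from -0.13 to 0.13. BLM, the helicase lost in Bloom syndrome, had a log2 fold change of -0.15 and was not called (adjusted p = 0.13, edgeR). In this role 3 of 7 members fell and 2 rose (median log2 fold change -0.15).

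The mediators also split. BRCA1 and BARD1, which form one ubiquitin ligase, fell together, PALB2 and BRCA2 did not pass, and RAD52 rose. BARD1 (chr2:214725646-214809711) had 24.4, 20.7 and 21.4 CPM in doxorubicin and 42.6, 39.4 and 37.7 CPM in DMSO, without overlap, for a log2 fold change of -0.85 ± 0.09 (SE, adjusted p = 4.1e-07, edgeR). BRCA1 (chr17:43044295-43170245) had 72.3, 76.5 and 70.4 CPM in doxorubicin and 138, 125 and 108 CPM in DMSO, without overlap, with a log2 fold change of -0.76 ± 0.08 (SE, adjusted p = 6.0e-07, edgeR). The DMSO libraries spread more widely for BRCA1 than the doxorubicin libraries did. Per kilobase of exon, BRCA1 was 1.955, 2.43 and 2.17 times BARD1 in doxorubicin and 2.14, 2.10 and 1.89 times BARD1 in DMSO, which overlap (exact permutation p = 0.4).

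PALB2, which bridges BRCA1 to BRCA2, had 33.6 ± 2.47 CPM in doxorubicin and 34.2 ± 1.90 CPM in DMSO. BRCA2, the central mediator of strand pairing, had 37.9 ± 1.91 CPM in doxorubicin and 36.3 ± 6.0 CPM in DMSO. The approximate 95% interval of the log2 fold change was -0.19 to 0.14 for PALB2 and -0.14 to 0.26 for BRCA2, so a change beyond 1.5-fold lies outside both. BRIP1 (FANCJ), the helicase that binds BRCA1, fell to 39.4, 51.0 and 50.03 CPM in doxorubicin, against 57.2, 57.3 and 62.1 CPM in DMSO (log2 fold change -0.33, adjusted p = 0.0046, edgeR). Doxorubicin replicate 1 was the lowest of its libraries, and without it the log2 fold change was -0.22 (adjusted p = 0.015, edgeR).

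RAD52 (chr12:912077-990053), which anneals complementary single strands and is a backup mediator in human cells, had 18.3, 18.3 and 17.5 CPM in doxorubicin and 12.4, 10.6 and 13.9 CPM in DMSO. All doxorubicin values were higher, with a log2 fold change of 0.56 ± 0.11 (SE, adjusted p = 3.7e-04, edgeR). Over the 6 mediators, 3 fell and 1 rose, with a median of -0.18.

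RAD51B, RAD51C, RAD51D, XRCC2 and XRCC3 form a paralog group whose products work in small complexes during strand pairing. RAD51C (chr17:58692573-58735611), which sits in both of the known paralog complexes, had 41.4, 41.6 and 41.0 CPM in doxorubicin and 34.8, 31.0 and 27.1 CPM in DMSO. The doxorubicin libraries were nearly equal and all above the DMSO libraries, and the log2 fold change was 0.42 ± 0.09 (SE, adjusted p = 6.4e-04, edgeR). RAD51B (chr14:67819779-68730218) had 1.99, 2.11 and 2.07 CPM in doxorubicin and 3.35, 3.38 and 4.03 CPM in DMSO, from 112 counts in doxorubicin and 198 in DMSO. It fell, with a log2 fold change of -0.80 ± 0.20 (SE, adjusted p = 0.0023, edgeR). Per kilobase, RAD51C was 25.7, 24.3 and 24.4 times RAD51B in doxorubicin and 12.8, 11.3 and 8.29 times RAD51B in DMSO, without overlap (exact permutation p = 0.1, or 0.14 over the 7 pairs).

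RAD51D and XRCC3 were not called, with log2 fold changes of -0.17 and -0.13. XRCC2 had 16.9, 23.2 and 20.5 CPM in doxorubicin and 23.5, 25.4 and 23.4 CPM in DMSO, just below the DMSO values, with a log2 fold change of -0.25 (adjusted p = 0.053, edgeR). Its adjusted p was 0.012 without doxorubicin replicate 2 and 0.020 with no filter on low counts, but 0.097 with DESeq2, 0.101 with library totals only and 0.149 without DMSO replicate 2. Without doxorubicin replicate 1 the log2 fold change was -0.14 and the adjusted p 0.234. Of the exon bases of XRCC3, 76.7% lie in exons of KLC1 on the opposite strand, with 2731 counts in doxorubicin and 2751 in DMSO, and the libraries carry no strand. Its level is therefore uncertain. In this role 1 of 5 members fell and 1 rose.

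All 3 genes whose products help DNA strands exchange fell, with a median of -0.63. RAD51AP1, which stimulates strand pairing, fell to 49.8, 54.4 and 52.4 CPM in doxorubicin, against 80.4, 83.0 and 79.3 CPM in DMSO (log2 fold change -0.63, adjusted p = 4.0e-07, edgeR). RAD54L, a DNA translocase, fell to 24.9 ± 1.28 CPM, against 37.5 ± 1.09 CPM in DMSO. Exons of LRRC41 on the opposite strand cover 25.1% of its exon bases.

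RAD54B (chr8:94371960-94475109), a relative of RAD54L, had 2.22, 2.48 and 3.36 CPM in doxorubicin and 6.59, 4.22 and 4.58 CPM in DMSO. The groups did not overlap, with a log2 fold change of -0.93 ± 0.22 (SE, adjusted p = 0.0014, edgeR). It rests on 146 counts in doxorubicin and 282 in DMSO, and 10.9% of its coding bases lie in no other listed gene.

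Within the Fanconi core complex, FANCE, FANCC, FANCA and FANCG fell and the other 4 genes did not pass. FANCE (chr6:35452361-35467103), which binds FANCD2, had 34.4, 29.1 and 30.6 CPM in doxorubicin and 52.98, 59.6 and 58.0 CPM in DMSO. The groups lay far apart, with a log2 fold change of -0.86 ± 0.08 (SE, adjusted p = 1.4e-07, edgeR). FANCC, its partner in one module of the complex, fell to 29.4 ± 0.679 CPM, against 48.9 ± 1.13 CPM in DMSO. FANCA fell to 63.6 ± 1.45 CPM, against 95.9 ± 1.54 CPM in DMSO, and FANCG, which binds FANCA, fell to 65.1 ± 4.0 CPM, against 88.1 ± 0.916 CPM in DMSO. Exons of ZNF276 on the opposite strand cover 23.6% of the exon bases of FANCA.

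The other 4 core genes were not called. FANCL, the ubiquitin ligase, had 16.3 ± 0.813 CPM in doxorubicin and 17.4 ± 1.18 CPM in DMSO. Exons on the opposite strand, mostly of VRK2, cover 19.7% of the exon bases of FANCL, and the libraries carry no strand. FANCB, which holds FANCL in the complex, had 13.2, 15.5 and 13.2 CPM in doxorubicin and 11.1, 12.2 and 12.6 CPM in DMSO, all higher, but was not called (log2 fold change 0.22, adjusted p = 0.099, edgeR). FAAP100, which joins FANCB and FANCL in the catalytic module and belongs to the list of other pathway genes, fell to 49.2 ± 3.86 CPM in doxorubicin, against 72.7 ± 7.69 CPM in DMSO (log2 fold change -0.56, adjusted p = 2.2e-05, edgeR); it was named after its values were seen. FANCM, the translocase that brings the complex to DNA, had 15.1 ± 0.991 CPM in doxorubicin and 15.5 ± 1.20 CPM in DMSO. FANCF, the adaptor that shares a module with FANCC and FANCE, had 114 counts in doxorubicin and 125 in DMSO, and its interval of -0.62 to 0.41 on the log2 scale is too wide to show a 1.5-fold fall or its absence. Over the 8 core genes, 4 fell and 0 rose (median log2 fold change -0.27). At an unadjusted p under 0.05 the count of core genes that rose was also 0, as it was with DESeq2.

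FANCD2 (chr3:10026414-10101930), the ubiquitin acceptor at the centre of the pathway, had 24.9, 30.4 and 30.5 CPM in doxorubicin and 58.6, 56.0 and 52.1 CPM in DMSO. The groups lay far apart, with a log2 fold change of -0.96 ± 0.09 (SE, adjusted p = 8.8e-08, edgeR). RAD54B fell by a similar size, and its fall was the larger one without doxorubicin replicate 3 (-1.11 for RAD54B and -0.996 for FANCD2), without DMSO replicate 2 and without DMSO replicate 3. FANCI, the partner of FANCD2, fell less, to 109, 110 and 108 CPM in doxorubicin, against 140, 135 and 132 CPM in DMSO (log2 fold change -0.32, adjusted p = 1.8e-04, edgeR).

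Per kilobase, FANCD2 was 0.211, 0.257 and 0.263 times FANCI in doxorubicin and 0.388, 0.385 and 0.365 times FANCI in DMSO. The ratio was lower in every doxorubicin library, with the smallest exact permutation p the design allows (0.1, or 0.14 after adjustment over the 7 pairs). CLSPN (chr1:35720218-35769967), claspin, the adaptor by which the kinase ATR activates CHK1, had 76.9, 66.3 and 59.9 CPM in doxorubicin and 122.8, 120 and 110 CPM in DMSO. It fell without overlap, with a log2 fold change of -0.80 ± 0.08 (SE, adjusted p = 6.0e-07, edgeR).

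**Figure D3:**
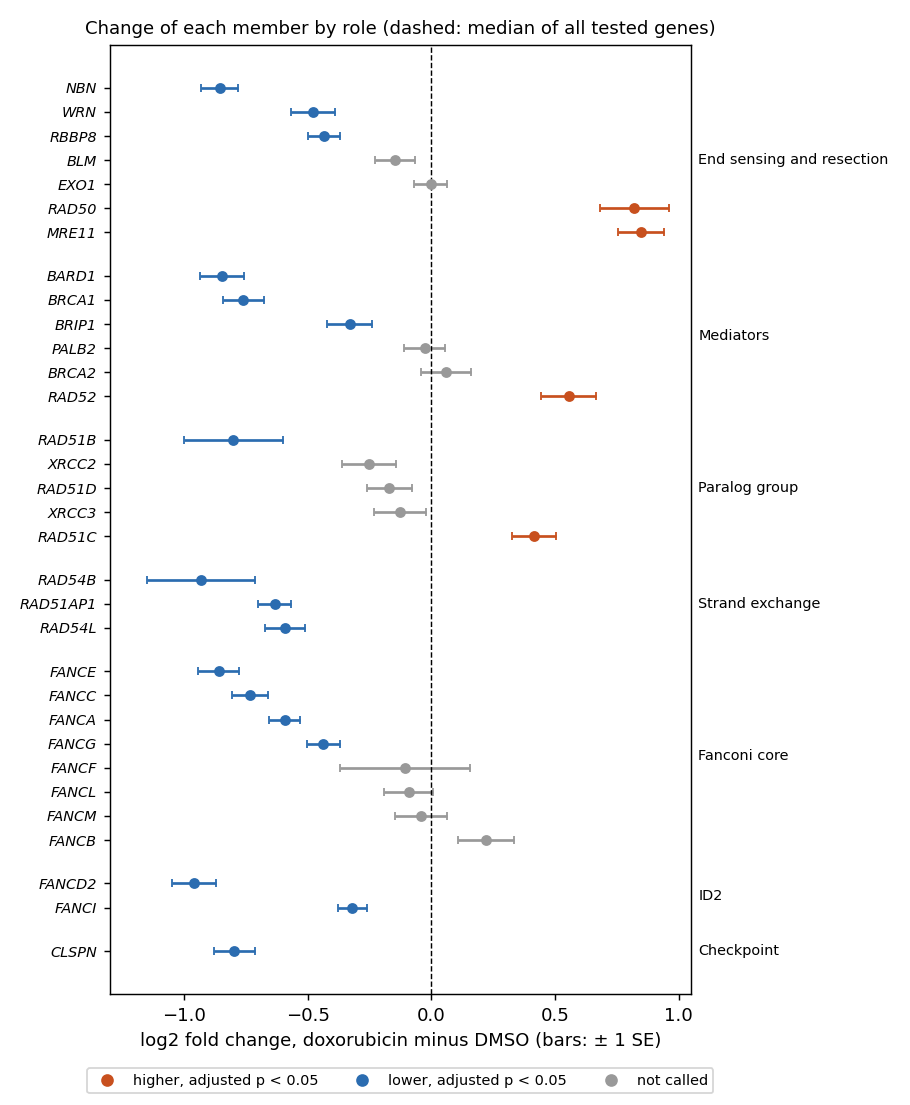
Log2 fold change, doxorubicin minus DMSO, of each member by role, with bars of ± 1 SE; orange points rose, blue points fell and grey points were not called at an adjusted p under 0.05. The dashed line is the median of all tested genes, and strand exchange and ID2 (FANCD2 and FANCI) are the roles of more than 1 gene in which every member fell.

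Seen by role, the lower share ran from 1 of 5 genes of the paralog group to all 3 strand exchange genes and both genes of the FANCD2-FANCI pair. With 2 to 8 genes a role, and with 32% of all tested genes lower, these counts describe the roles and do not separate them. The 4 risers lay in end sensing, the mediators and the paralog group.

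Levels per kilobase of exon were ranked among the 26 members with at most 10% of their exon bases in other genes. RAD51AP1 led with 20.4 in doxorubicin and 31.6 CPM per kb in DMSO, then FANCG with 18.0 in doxorubicin and 24.4 in DMSO. RAD51B was the lowest, with 0.275 CPM per kb in doxorubicin and 0.480 in DMSO. Gene span showed little relation to the change (r = -0.13, rho = -0.16, n = 32 members), and the span of called members ran from 6182 bases for FANCG to 910440 bases for RAD51B, both of which fell. The relation to the DMSO level per kilobase was stronger (r = -0.34, rho = -0.38, n = 32 members). That level also enters the change, and it is uncertain for members with overlapping exons.

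Matches to an E2F site occurred in 6 of the 28 members with a promoter entry (21.4%), against 3.99% of 27305 genes with an entry and 6.54% of 11205 tested genes matched by symbol. They lay in 4 of the 13 members that fell (FANCD2, CLSPN, FANCC and FANCA), in 0 of the 4 that rose and in 2 of the 11 not called (EXO1 and XRCC2). EXO1 carries TTTCGCGC from base 5 after its start, and its level was 66.9 CPM in both groups. The CCAAT box (CCAAT on either strand) occurred in 42.9% of the members, 39.7% of all genes with an entry and 42.6% of the tested genes. The cell cycle homology region (TTTGAA on either strand) occurred in 2 members (BRIP1 and FANCC, 7.14%), in 18.2% of all genes with an entry and in 13.8% of the tested genes. Each kind of motif was counted on its own, whether or not it overlapped another, and a match is not a bound site.

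The promoter of MRE11 is shown because MRE11 rose while its partner NBN fell. It is the 250 bases before the RefSeq start (chr11:94493845-94494094, - strand), read on the strand of the gene, and the capitals mark the CCAAT box, once as ATTGG, its other strand, from 127 bases before the start and once as CCAAT from 62 bases before it. It held no match to an E2F site, but such matches also lay in only 4 of the 13 members that fell. The part of these letters in the rise was not tested.
MRE11: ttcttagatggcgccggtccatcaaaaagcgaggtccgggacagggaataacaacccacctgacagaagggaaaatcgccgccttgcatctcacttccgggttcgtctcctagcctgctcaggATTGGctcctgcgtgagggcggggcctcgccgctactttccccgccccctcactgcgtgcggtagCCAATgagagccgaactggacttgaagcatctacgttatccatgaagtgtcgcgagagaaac

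In the gene models of the table, several members start head to head with another gene. Starts here are the outermost exon ends of the models. Such an end need not be the start used in these cells, so a shared promoter is not shown. A gene on the opposite strand began within 1000 bases upstream of 14 members, giving 15 pairs, and the neighbour was tested in 11 pairs. Of those 11 neighbours 4 rose, 4 fell and 3 were not called, where 32.7% of all tested genes rose and 32% fell. These counts and those of the pairs below are descriptive and do not set the neighbours apart from other genes. Both genes of the pair fell in 1 pair (WRN and PURG), both rose in 1 pair (RAD51C and TEX14), and the calls were opposite in 3 pairs.

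The opposite pairs were BRCA1 with NBR1, RAD52 with ERC1, and FANCD2 with CIDECP1. NBR1, an autophagy receptor gene whose start lies 236 bases from that of BRCA1 in the gene models of the table, rose to 211 ± 8.53 CPM, against 144 ± 6.92 CPM in DMSO (log2 fold change 0.55, adjusted p = 1.1e-06, edgeR). Whether BRCA1 RNA in these cells begins at that outermost end was not tested. ERC1, 456 bases from RAD52, fell to 121 ± 3.79 CPM, against 168 ± 6.60 CPM in DMSO. CIDECP1, a pseudogene 49 bases from FANCD2, rose to 15.1 ± 0.702 CPM, against 9.98 ± 0.737 CPM in DMSO. DCTN5, a dynactin gene 82 bases from PALB2, rose to 183 ± 9.09 CPM, against 112 ± 1.44 CPM in DMSO, while PALB2 was not called. TEX14, a gene known from germ cells, was low, with 1.302 ± 0.107 CPM in doxorubicin and 0.198 ± 0.0541 CPM in DMSO.

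**Figure D4:**
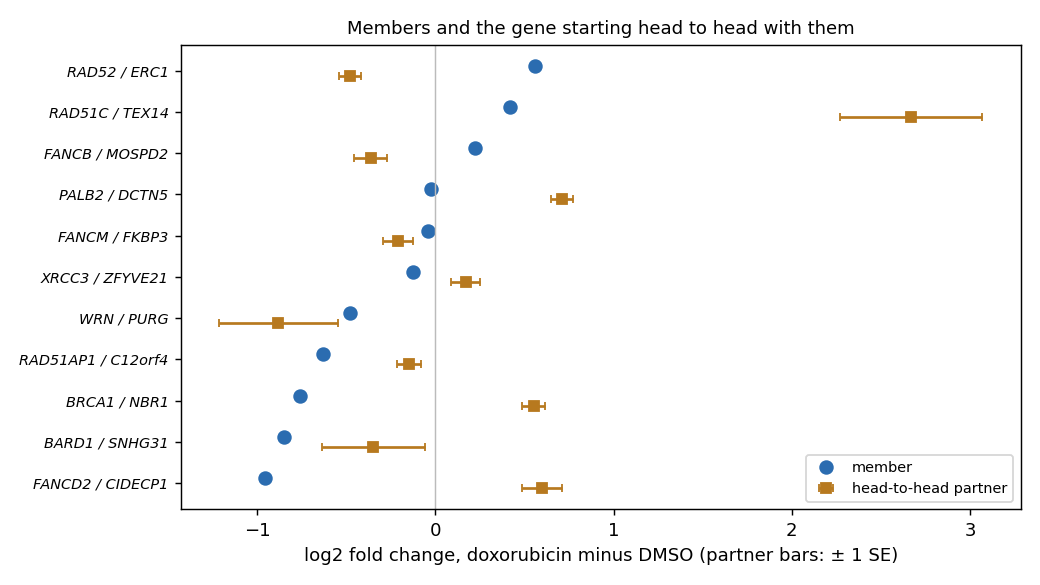
Log2 fold change, doxorubicin minus DMSO, of members (circles) and of the gene that starts head to head with each (squares, bars of ± 1 SE), for the 11 pairs in which the neighbour was tested. Starts are the outermost exon ends of the gene models. BRCA1, FANCD2 and RAD52 are the pairs in which both genes were called and lie on opposite sides of 0.

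Other genes of the pathway, in a list kept apart from the members, also held more falls than rises. Of 51 tested, 27 fell, 8 rose and 16 did not pass, where 32% of all tested genes fell and 32.7% rose. Their median log2 fold change was -0.24, beside -0.0013 over all tested genes. UBE2T, the ubiquitin-conjugating enzyme that works with FANCL, fell to 31.1 ± 0.382 CPM in doxorubicin, against 62.0 ± 1.06 CPM in DMSO (log2 fold change -0.996, adjusted p = 3.1e-09, edgeR). SLX4, the nuclease scaffold downstream of FANCD2, fell to 24.0 ± 0.759 CPM, against 47.7 ± 3.25 CPM in DMSO. MAD2L2, a subunit of the shieldin complex that limits resection, fell to 42.9 ± 4.31 CPM, against 76.6 ± 2.82 CPM in DMSO.

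The largest rises in that list were those of RECQL5, RMI2 and FAAP20. RECQL5, a helicase that limits recombination, rose to 48.3 ± 1.46 CPM, against 32.1 ± 1.497 CPM in DMSO (log2 fold change 0.59, adjusted p = 3.6e-06, edgeR). RMI2, a subunit of the complex that acts with BLM, rose to 24.4 ± 1.303 CPM, against 16.8 ± 2.88 CPM in DMSO. FAAP20, a core complex subunit that binds FANCA, rose to 75.6 ± 6.22 CPM, against 54.8 ± 5.70 CPM in DMSO, while FANCA itself fell.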

How the data were processed

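Poly(A) RNA was sequenced from 3 doxorubicin and 3 DMSO libraries, unstranded per the labels' protocols. The authors deposited whole-number gene counts in a featureCounts layout, per the file headers, with summed exon lengths. STAR, SAMtools, Subread and GRCh38 (hg38) are named in the submitters' processing notes; versions and the treatment of reads shared by overlapping genes are not given in those notes.

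Symbols came from a gene name table and GENCODE release 29. Using edgeR 4.0.16 (R 4.3.3), genes were kept by filterByExpr (count 10, total 15), scaled by TMM and compared by a two-sided quasi-likelihood test with robust dispersion and no covariate. Adjusted p under 0.05 over 15358 genes was the threshold. SE was derived from the log2 fold change and its F value, and 95% intervals from SE by a normal approximation. CPM is given as mean ± SD. TMM makes changes relative to the other genes. The steps were tested on simulated data. Alternatives were DESeq2 1.42.0, other scalings and filters, leaving out the 50 most abundant genes, glmTreat, a replicate block, leaving out each library or overlapping members, and a shorter promoter window.

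Pairs of libraries in a group differed beyond sampling noise (chi-square over degrees of freedom 2.82 to 9.39). Columns of other samples numbered 0. Values per library are given for members that rose, for the 8 largest called changes with a mean log2 CPM not under 1, and for the largest change in each role. BRCA1, BRIP1, XRCC2, RAD51AP1, FANCB, FANCI, other proliferation markers than the 2 that changed most, the subunit pairs, the neighbouring genes and the E2F windows of more than 4 members were added after values were seen. Members and lists were chosen with earlier results of these data known. Results for 1 other gene of the pathway are not reported here.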

Additional observations from a re-analysis of the deposited data

How the results depend on the processing

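The 17 falls and 4 rises kept their call and direction with DESeq2, RLE scaling, upper-quartile scaling, library totals only, no filter, a filter of 1 CPM in 3 libraries, the replicate block, the 50 most abundant genes left out, and each library left out in turn. Against a 1.5-fold change, glmTreat called 8 of those 21 members, 7 lower and 1 higher (1470 and 2418 of all genes). Its lower calls were 1 in end sensing, 2 mediators, 0 in the paralog group, 0 in strand exchange, 2 in the Fanconi core, 1 of FANCD2 and FANCI, and CLSPN. In the other lists it called 5 lower and 0 higher pathway genes and 13 lower proliferation markers. XRCC2 was also called, making 2 lower genes of the paralog group, with no filter, with the replicate block and without doxorubicin replicate 2 (leaving out a library gave 1 to 2). Same-numbered libraries deviated together at r = -0.02 to 0.05, so the replicate numbers were not taken as pairs; the block gave 18 lower and 4 higher members. With members of over 10% overlapping exon bases left out, 14 of 26 fell and 3 rose. In the shorter promoter window 0% of members held the cell cycle homology region, beside 11.5% of all genes with an entry and 8.14% of tested genes. E2F matches there lay in 5 members (17.9%), beside 2.85% of all genes with an entry and 4.67% of tested genes. Of the 13 members that fell, 3 held 1 (CLSPN, FANCC and FANCD2).

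Of the 11 members not called, EXO1, PALB2, BRCA2, FANCF and FANCM changed sign under some settings. EXO1 was at 0.011 with RLE, 0.016 with upper-quartile scaling, 0.040 with library totals, 0.013 with the 1 CPM filter and 2.3e-04 with the replicate block. PALB2 was at 0.015 with library totals. Leaving out 1 library gave -0.045 to 0.036 for EXO1, -0.087 to 0.018 for PALB2, -0.023 to 0.197 for BRCA2, -0.400 to 0.115 for FANCF and -0.113 to 0.0020 for FANCM. The cause was not tested. Low counts limit RAD51B, RAD54B and FANCF.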

Other observations

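RAD50 and RAD54B lie largely under a same-strand gene model with almost no counts, at 79.7% and 59.1% of their exon bases. Their levels in this table therefore cannot be set against those of the other genes, and the rule for reads in shared bases was not stated in the notes used.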
